A study of Homo sapiens with 38 samples.

Results

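The libraries described here come from day 8 of neural induction of H9, a widely used line of human embryonic stem cells, and ask how cultures given retinoic acid (RA) together with a high WNT signal differ from cultures given a lower WNT signal alone. Poly(A) RNA was sequenced from 2 libraries of CT4.0RA cultures, which received CT at 4.0 µM and RA at 1.0 µM, and from 2 libraries of CT2.0 cultures, which received CT at 2.0 µM and no RA. CT is the WNT activator of the study, under a name that the labels leave unexpanded. These 4 libraries were taken by their labels from a series of 38 libraries in 19 groups, in which each group has 2 libraries that the labels call biological replicates. All cells were wild type and of 1 line, and the groups differ both in RA and in CT dose, so the 2 agents cannot be told apart in this pair alone. The design text aims at spinal cord with CT4.0RA and, for CT without RA, at a range of brain regions that reaches the hindbrain with rising dose. Cultures given CT at 4.0 µM without RA (CT4.0, day 8) and the day 4 cultures of CT4.0RA and CT2.0 are used below to place the difference. Groups are of day 8 unless day 4 is named.

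In the vertebrate embryo the neural tube is divided from head to tail by nested domains of HOX transcription factors, whose genes lie in 4 clusters and are switched on in the order in which they stand. WNT, FGF and RA signals set that order, partly through the CDX factors, and RA from the flanking somites acts on the caudal hindbrain and the adjoining spinal cord. Cells read RA through nuclear receptors (RAR and RXR), carry it on small binding proteins and break it down with CYP26 enzymes, several of which are themselves induced by RA. The rhombomeres, the segments of the hindbrain, are told apart by factors such as EGR2 and by ephrins and their receptors, which keep neighbouring segments from mixing.

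The values are TPM, which are corrected for transcript length and scaled to a fixed total in each library, from the table the authors deposited, and how many reads each value rests on is unknown. All differences are of log2(TPM + 1), a scale on which changes of low genes come out too small, and are given with their SE. They were fitted with limma over all 38 libraries, with p adjusted by the Benjamini-Hochberg method over the 28221 genes tested. A gene was called when its adjusted p was under 0.05 and its log2 fold change at least 1 in size. Of the 28221 genes, 673 (2.38%) were higher and 1173 (4.16%) lower in CT4.0RA than in CT2.0. The list counts of this comparison below stand against these 2 shares. Libraries of 1 group correlated at r = 0.966 in CT4.0RA and at r = 0.966 in CT2.0, and at between 0.933 and 0.940 across the groups. Ribosomal protein genes held 38.2% and 39.1% of TPM in CT4.0RA libraries, against 28.7% and 29.7% in CT2.0 libraries, and under the fixed total a larger class lowers all other values. The median log2 fold change of all genes was -0.17, and that of protein-coding genes alone was -0.26. After scaling by the trimmed mean of M values (TMM), the median of all genes was 0.00, and the calls were 933 higher (3.31%) and 686 lower (2.43%). The share of calls that were higher was thus 36.5% as deposited and 57.6% after TMM scaling. A value near the threshold is given under both scalings where the call differs. The fit over 19 groups has 19 residual degrees of freedom, and a fit of the 4 libraries alone, with 2, is named where it ends the call of a marker or HOX gene. The p-values measure the spread between libraries of a group, pooled over all 19 groups, and not that of the 4 libraries alone. The labels do not say whether replicates came from separate differentiations, so what that spread holds is not known. In bulk samples, fewer cells of a type and less RNA per cell cannot be told apart.

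**Figure D1:**
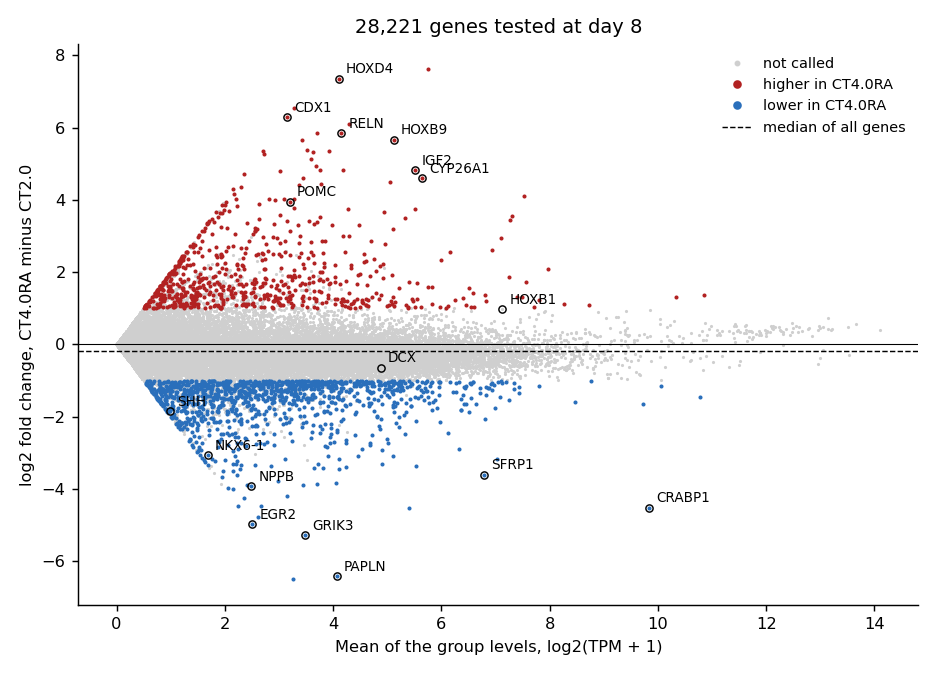
Log2 fold change of CT4.0RA minus CT2.0 at day 8 (y axis) against the mean of both group levels, log2(TPM + 1) (x axis), for the 28221 genes tested, with called genes in colour. The dashed line at -0.17 is the median of all genes, and genes named in the text are circled.

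The 5 genes chosen to mark these cultures were HOXB9, HOXB1, CDX1, POMC and DCX. They were picked with earlier results of these data in view, so their values are a description of the cultures. HOXB9 (ENSG00000170689.9, chr17:48621159-48626356 on the minus strand, hg38), a caudal HOX gene, was at 191 and 244 TPM in CT4.0RA libraries, against 1.05 and 7.98 TPM in CT2.0 libraries. Its log2 fold change was 5.66 ± 0.51 (adjusted p = 2.04e-08), and the CT2.0 libraries lay farther apart than the CT4.0RA libraries on the log scale. Fitted on the 4 libraries alone its adjusted p was 0.0726, and the call was lost. CDX1 (ENSG00000113722.16, chr5:150166795-150184558 on the plus strand), a caudal homeobox factor, was at 70.2 and 84.9 TPM in CT4.0RA libraries and listed at 0 in both CT2.0 libraries (adjusted p = 1.96e-13). POMC (ENSG00000115138.10, chr2:25160853-25168903 on the minus strand), the precursor of several peptide hormones, was at 36.1 and 33.8 TPM in CT4.0RA libraries, against 1.51 and 1.17 TPM in CT2.0 libraries (3.95 ± 0.16, adjusted p = 9.28e-14). For these 3 genes, and for HOXB1 and DCX below, the libraries of the groups did not overlap, as for 15442 of the 28221 genes tested. HOXB1 (ENSG00000120094.6), an anterior HOX gene and a direct RA target in the mouse hindbrain, was at 205 and 182 TPM in CT4.0RA libraries, against 90.7 and 107 TPM in CT2.0 libraries. Its difference of 0.97 ± 0.16 fell just short of the threshold of 1 (adjusted p = 8.59e-05), but it was called after TMM scaling (1.27) and when 1 library was left out (1.09 without CT2.0 replicate 2 and 1.06 without CT4.0RA replicate 2). DCX (ENSG00000077279.18, chrX:111293779-111412429 on the minus strand), a microtubule protein of young migrating neurons, was at 23.2 and 21.7 TPM in CT4.0RA libraries, against 32.8 and 38.8 TPM in CT2.0 libraries. It did not reach the threshold either (-0.65 ± 0.18, adjusted p = 0.0115).

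Over the 9 conditions of day 8, HOXB1 and POMC were highest in CT4.0RA. HOXB1 averaged 194 TPM in CT4.0RA, and without RA at most 0.0700 TPM up to CT1.0, 98.7 TPM at CT2.0, 45.5 TPM at CT3.0 and 31.2 TPM at CT4.0. POMC averaged 35.0 TPM in CT4.0RA and 1.34 TPM at CT2.0, and less in every other condition. CDX1 averaged 77.6 TPM in CT4.0RA and 0.822 TPM at CT4.0, and no other day 8 condition was above 0.119 TPM. HOXB9 averaged 218 TPM in CT4.0RA, and without RA 4.51 TPM at CT2.0, 319 TPM at CT3.0 and 176 TPM at CT4.0. Its difference between CT4.0RA and CT4.0 did not pass the test (0.30 ± 0.51, adjusted p = 0.787). DCX averaged 22.4 TPM in CT4.0RA, and without RA 34.0 TPM at CT1.0, 35.8 TPM at CT2.0, 0.251 TPM at CT3.0 and 0.209 TPM at CT4.0.

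The HOX genes as a class were higher in CT4.0RA. Of the 39 HOX genes, 28 were tested, and 18 of these were higher and 1 lower, where 2.38% and 4.16% of all genes tested were. The median log2 fold change of the 28 was 2.31. By position in the clusters, all 7 genes of HOX3 and HOX4 rose, 9 of the 14 tested genes of HOX5 to HOX9 rose, and neither of the 2 tested genes of HOX10 to HOX13 passed. Summed over HOX3 and HOX4, the level was 978 and 874 TPM in CT4.0RA libraries, against 48.4 and 54.3 TPM in CT2.0 libraries. Over HOX5 to HOX9 it was 475 and 534 TPM in CT4.0RA libraries, against 1.96 and 15.6 TPM in CT2.0 libraries. Over HOX1 and HOX2, where 2 of 5 genes rose and 1 fell, the sums lay closer, at 295 and 257 TPM in CT4.0RA libraries, against 220.1 and 231 TPM in CT2.0 libraries. Against the aimed spinal cord identity, CT4.0RA libraries thus held HOX RNA up to HOXB9, while HOX10 to HOX13 summed to 0.110 and 0.142 TPM.

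HOXD4 had the largest increase among protein-coding genes that averaged at least 5 TPM in the higher group and whose libraries did not overlap, at 226 and 211 TPM in CT4.0RA libraries, against 0.263 and 0.429 TPM in CT2.0 libraries (7.35 ± 0.23, adjusted p = 7.25e-16). HOXB3 was the most abundant HOX gene in CT4.0RA, at 584 and 489 TPM in CT4.0RA libraries, against 42.5 and 47.9 TPM in CT2.0 libraries (3.54 ± 0.30, adjusted p = 9.39e-09). HOXB4, at 73.0 and 74.8 TPM in CT4.0RA libraries, against 0.226 and 1.87 TPM in CT2.0 libraries, gave 5.32 ± 0.30. In both genes, as in HOXD4, the CT4.0RA libraries lay close together. In the same cluster, HOXB6 was at 152 and 156 TPM in CT4.0RA, against 0.512 and 2.40 TPM in CT2.0, and HOXB8 at 92.1 and 84.5 TPM in CT4.0RA, against 0.244 and 2.90 TPM in CT2.0. HOXB4, HOXB6, HOXB8 and HOXB9 were each higher in the second CT2.0 library than in the first, and in both below the CT4.0RA libraries, and the calls of HOXB7, HOXB8 and HOXB9 were lost when only the 4 libraries were fitted (adjusted p = 0.086, 0.0567 and 0.0726). From the HOXA cluster, HOXA5 was at 22.2 and 28.7 TPM in CT4.0RA libraries and listed at 0 in both CT2.0 libraries. HOXC4 was at 41.8 and 47.7 TPM in CT4.0RA, against 3.80 and 2.25 TPM in CT2.0 (3.53 ± 0.23).

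The HOX profile of CT4.0RA was uneven among paralogs of the same number. HOXB9 averaged 218 TPM in CT4.0RA, while HOXA9 was at 0 and 0.036 TPM and HOXC9 was listed at 0 in both libraries. HOXB8 averaged 88.3 TPM, whereas HOXC8 was listed at 0 in both CT4.0RA libraries and HOXD8 averaged 1.15 TPM. Between HOXB6 and HOXB8, which averaged 154 and 88.3 TPM, HOXB7 averaged only 4.41 TPM in CT4.0RA, against 0.385 TPM in CT2.0 (2.02 ± 0.25, adjusted p = 1.8e-06). HOXC6 passed narrowly (1.08 ± 0.28, at 0.911 and 2.13 TPM in CT4.0RA, against 0 and 0.339 TPM in CT2.0), and the call was lost at 0.87 without CT2.0 replicate 1 and 0.72 without CT4.0RA replicate 2, as well as when only the 4 libraries were fitted (adjusted p = 0.191). HOXA6, HOXA7, HOXA9, HOXA10, HOXC8, HOXC9 and HOXC10 did not pass, nor did HOXB1 and HOXB2.

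At the anterior end the direction differed between genes. HOXD1 was at 6.62 and 5.32 TPM in CT4.0RA, against 0.038 and 0 TPM in CT2.0 (2.77 ± 0.13). HOXA2, which patterns the second rhombomere and its crest, was the 1 HOX gene that fell, at 3.23 and 3.16 TPM in CT4.0RA, against 43.6 and 37.2 TPM in CT2.0 (-3.30 ± 0.19, adjusted p = 1.48e-11). HOXB2 was at 55.6 and 48.5 TPM in CT4.0RA, against 84.2 and 85.5 TPM in CT2.0, a difference that did not reach the threshold (-0.70 ± 0.14, adjusted p = 0.000636). HOXA3, the next gene of its cluster after HOXA2, rose.

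**Figure D2:**
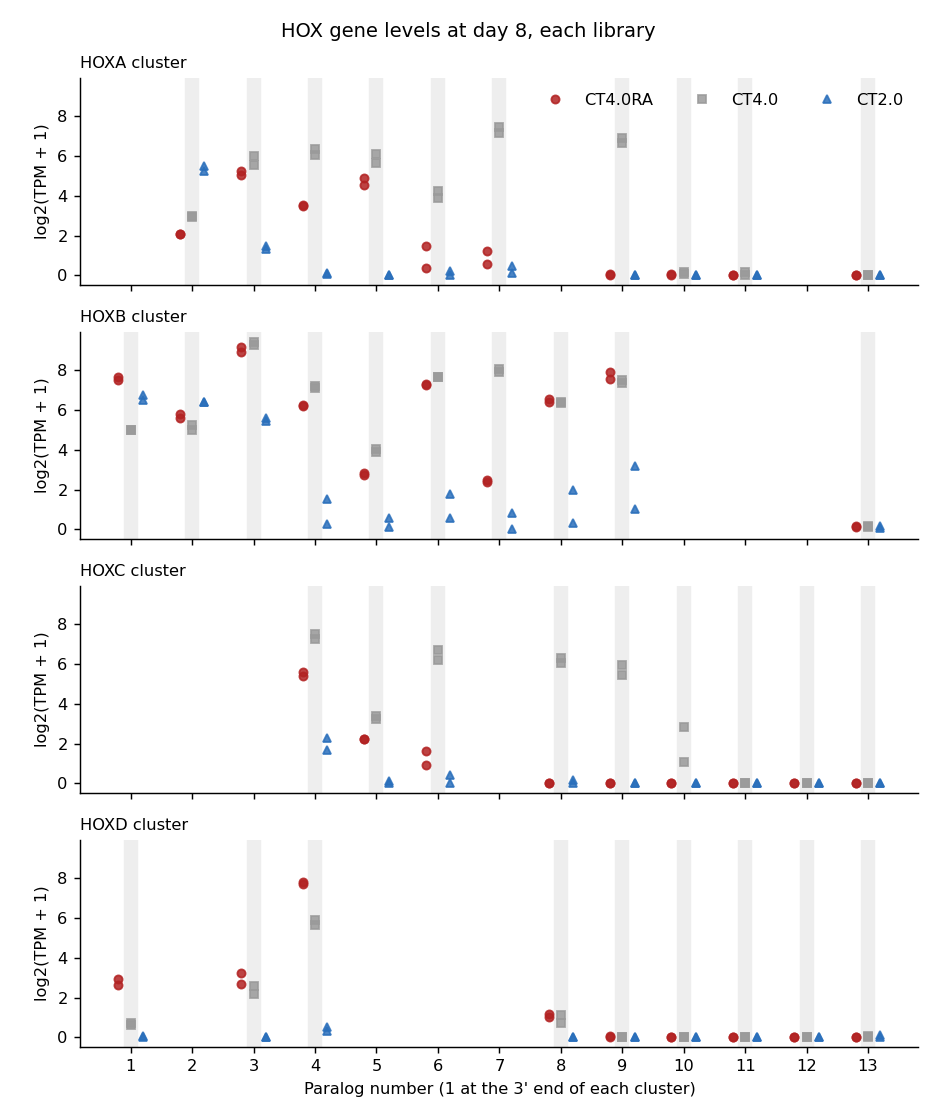
Level of HOX genes, log2(TPM + 1), in each day 8 library of CT4.0RA, CT4.0 and CT2.0 (y axis), by cluster (panels) and paralog number (x axis). HOXB9 is high in CT4.0RA and CT4.0, HOXA7, HOXA9, HOXC8 and HOXC9 are high in CT4.0 alone, and HOXA2 is highest in CT2.0.

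Non-coding genes within the HOX clusters or 20000 bases beside them were gathered by position after the protein-coding values had been seen. Of 29 such genes tested, 14 were higher and 1 was lower, where 2.38% and 4.16% of all genes tested were, and 14 did not pass. HOXB-AS3, which overlaps HOXB5 and HOXB6, was at 675 and 768 TPM in CT4.0RA libraries, against 1.50 and 4.49 TPM in CT2.0 libraries (7.61 ± 0.55, adjusted p = 6.91e-10). HOXB-AS1, from the anterior end of the same cluster, was the 1 that fell, at 9.40 and 6.24 TPM in CT4.0RA libraries, against 211 and 189.9 TPM in CT2.0 libraries (-4.53 ± 0.21, adjusted p = 3.82e-13). HOTAIRM1, transcribed from the anterior end of the HOXA cluster, was at 560.2 and 472 TPM in CT4.0RA, against 119 and 123 TPM in CT2.0 (2.08 ± 0.23). HAGLR, of the HOXD cluster, was at 20.3 and 17.0 TPM in CT4.0RA libraries and listed at 0 in CT2.0. In GENCODE release 29, 33 of the 39 HOX genes are overlapped by another gene, 25 of them by one on the other strand, and whether the libraries kept strand is not given in the sources used here. Reads of HOXB6 and HOXB-AS3, for example, may have been divided between them, and levels of overlapping HOX genes are uncertain to that extent.

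The RA list held 25 tested genes, of receptors, binding proteins, enzymes and known targets. Of these 9 rose (36%) and 3 fell (12%), where 2.38% and 4.16% of all genes tested did, with a median of 0.12.
CYP26A1, the enzyme that clears RA, and RARB, an RA receptor gene, are the textbook direct targets and are shown here with their promoters.
The sequences are the 250 bases before the start from RefSeq (GRCh38.p14, plus strand), with the half-sites of a retinoic acid response element in capitals.
The motif searched was a pair of half-sites, each GGTCA or GTTCA, in the same direction with 6 letters between them, on either strand.
Over windows from 250 bases before the start to 50 after it, it was in 61 of 35116 promoters (0.174%).
Among the 23 genes of the RA list that have a promoter in the table, only CYP26A1 and RARB held it.
In CYP26A1 (chr10:93073643-93073892) it lies on the opposite strand, so the capitals read TGAAC, and it spans bases -90 to -75 from the start.
In RARB (chr3:25428013-25428262) it lies on the strand shown, at bases -52 to -37.
A match describes the letters and is not a measured binding site.
CYP26A1: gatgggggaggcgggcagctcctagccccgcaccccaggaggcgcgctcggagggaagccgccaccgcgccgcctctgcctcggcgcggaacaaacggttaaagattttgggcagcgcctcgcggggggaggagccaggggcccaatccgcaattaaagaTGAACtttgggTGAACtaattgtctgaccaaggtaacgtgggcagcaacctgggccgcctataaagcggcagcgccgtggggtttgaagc
RARB: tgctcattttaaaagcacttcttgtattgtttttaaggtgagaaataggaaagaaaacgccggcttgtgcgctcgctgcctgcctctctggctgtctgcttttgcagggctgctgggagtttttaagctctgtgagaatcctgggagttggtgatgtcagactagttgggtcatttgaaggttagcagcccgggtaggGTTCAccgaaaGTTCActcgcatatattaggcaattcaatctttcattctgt

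CYP26A1 was at 217 and 260.0 TPM in CT4.0RA libraries, against 12.7 and 6.08 TPM in CT2.0 libraries (4.60 ± 0.33, adjusted p = 6.44e-10). RARB was at 30.2 and 32.0 TPM in CT4.0RA libraries, against 3.56 and 3.53 TPM in CT2.0 libraries (2.82 ± 0.21, adjusted p = 7.63e-10). DHRS3, which turns retinaldehyde back into retinol, was at 36.9 and 45.5 TPM in CT4.0RA libraries, against 0.814 and 0.270 TPM in CT2.0 libraries (4.79 ± 0.26). Others that rose were TSHZ1, NEDD9, CRABP2, RARA and RARG. CRABP2, which carries RA to its receptors, was at 2168 and 1932 TPM in CT4.0RA, against 817 and 821 TPM in CT2.0 (1.32 ± 0.13). RARA averaged 33.5 TPM in CT4.0RA against 14.4 TPM in CT2.0 (1.16 ± 0.16), and RARG averaged 11.6 TPM in CT4.0RA against 2.51 TPM in CT2.0 (1.85 ± 0.19). The related carrier CRABP1 went the other way, at 183 and 196 TPM in CT4.0RA libraries, against 4544 and 4176 TPM in CT2.0 libraries (-4.52 ± 0.45, adjusted p = 7.41e-08). TSHZ2 also fell, and RXRA fell as deposited (-1.18) but did not reach the threshold after TMM scaling (-0.91).

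**Figure D3:**
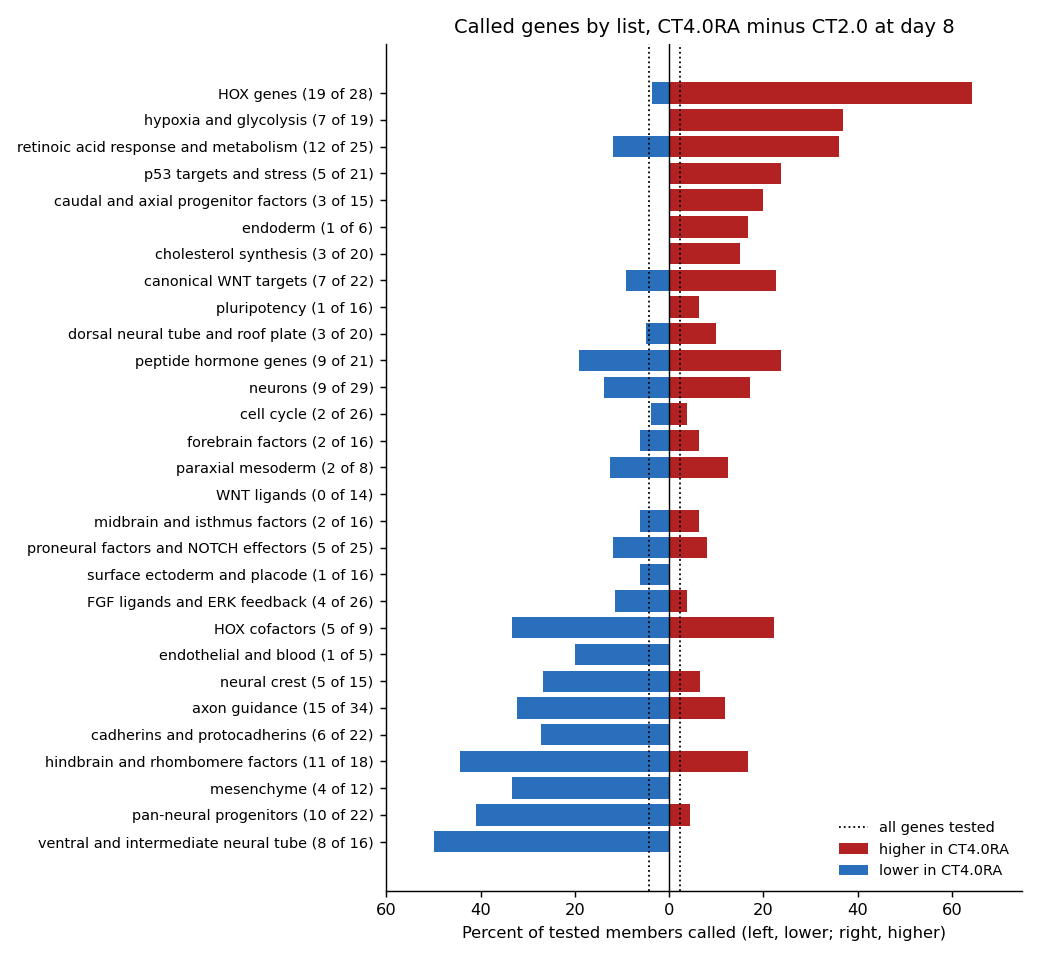
Percent of the tested members of each of 29 gene lists that were called lower (left) or higher (right) in CT4.0RA than in CT2.0 at day 8, with the number called of those tested in brackets. Dotted lines mark the same shares over all genes tested, 4.16% and 2.38%, and HOX genes lie farthest to the right and ventral neural tube genes farthest to the left.

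Some factors of caudal and axial progenitors, the bipotent cells that extend the trunk, were low in both groups. The list as a whole, which holds CYP26A1 and CDX1, summed to 419 and 501 TPM in CT4.0RA libraries, against 168 and 162 TPM in CT2.0 libraries. Of 15 tested, CDX1, CYP26A1 and SP5 rose and none fell by limma (2 were lower at an unadjusted p under 0.05). With a pseudocount of 0.1, 5 were higher and 1 was lower. SP5, a zinc finger factor induced by WNT, was at 11.9 and 28.3 TPM in CT4.0RA libraries, against 0.311 and 1.37 TPM in CT2.0 libraries (3.46 ± 0.52), with the second library the higher in each group. CDX2 averaged 0.727 TPM in CT4.0RA against 0.025 TPM in CT2.0, and TBXT, the defining factor of the primitive streak, was listed at 0 in CT4.0RA and averaged 0.025 TPM in CT2.0. FGF8, the FGF of the tail bud and isthmus, was at 0.750 and 0.993 TPM in CT4.0RA, against 3.44 and 1.44 TPM in CT2.0, which did not reach the threshold (-0.82 ± 0.27) except at -1.25 without CT2.0 replicate 2. Among 22 canonical WNT targets, 5 rose (CDX1, SP5, BAMBI, LEF1 and NKD2) and 2 fell (MYC and LGR5), with a median of -0.14 as deposited and 0.10 after TMM scaling, against -0.17 and 0.00 for all genes. NKD2, a feedback inhibitor, was at 12.5 and 13.1 TPM in CT4.0RA, against 4.85 and 5.77 TPM in CT2.0 (1.13 ± 0.31), and its call was lost at 1.03 without CT2.0 replicate 1 and 1.10 without CT4.0RA replicate 2. BAMBI, a decoy receptor of the TGF-beta family, was at 5.04 and 4.49 TPM in CT4.0RA, against 1.17 and 0.659 TPM in CT2.0 (1.60 ± 0.23). MYC was at 3.58 and 3.09 TPM in CT4.0RA, against 9.69 and 12.6 TPM in CT2.0 (-1.48 ± 0.21). LGR5, a receptor that boosts WNT signalling, was at 7.06 and 8.35 TPM in CT4.0RA, against 21.0 and 13.1 TPM in CT2.0 (-1.02 ± 0.27), and its call was lost after TMM scaling (-0.75) and at -0.70 without CT2.0 replicate 1 and -0.91 without CT4.0RA replicate 1. No WNT ligand of 14 tested was called by limma, where an unadjusted p under 0.05 was met by no gene that was higher and 3 that were lower. With a pseudocount of 0.1, 2 WNT ligands were called lower and none higher.

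Some secreted inhibitors of WNT and of other growth factors were among the genes lower in CT4.0RA; the genes of this paragraph were chosen after their values were seen, and such inhibitors were not counted as a class. SFRP1 was at 30.8 and 30.7 TPM in CT4.0RA libraries, against 399 and 375 TPM in CT2.0 libraries (-3.61 ± 0.10, adjusted p = 2.56e-16). SFRP2 was at 43.2 and 42.2 TPM in CT4.0RA libraries, against 389 and 392 TPM in CT2.0 libraries (-3.17 ± 0.13), and FRZB averaged 1.76 TPM in CT4.0RA against 11.8 TPM in CT2.0 (-2.22 ± 0.24). FST, which binds activin and some BMPs, was at 0.514 and 0.410 TPM in CT4.0RA, against 17.0 and 13.1 TPM in CT2.0 (-3.45 ± 0.18), and DLK1, a non-canonical NOTCH ligand, at 1.21 and 3.86 TPM in CT4.0RA, against 50.9 and 43.0 TPM in CT2.0 (-3.87 ± 0.35). Among the ID genes, inhibitors of basic helix-loop-helix factors and common BMP targets, ID2 averaged 4.82 TPM in CT4.0RA against 59.9 TPM in CT2.0 (-3.40 ± 0.19) and ID1 4.92 TPM in CT4.0RA against 39.2 TPM in CT2.0 (-2.73 ± 0.31). ID3 (0.27 ± 0.17) and ID4 (-0.71 ± 0.31) did not pass.

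Hindbrain and rhombomere factors split. Of 18 tested, 8 fell and 3 rose, with a median of -0.19. After TMM scaling 7 were lower and 5 higher, with a median of 0.05, and 5 were higher without CT2.0 replicate 1. EGR2 (also called KROX20), which defines a pair of odd-numbered rhombomeres, was listed at 0 in both CT4.0RA libraries and was at 38.3 and 24.2 TPM in CT2.0 libraries (adjusted p = 3.18e-12). EPHA4, an ephrin receptor of the odd-numbered rhombomeres, was at 9.00 and 10.9 TPM in CT4.0RA libraries, against 86.7 and 76.2 TPM in CT2.0 libraries (-2.92 ± 0.28). GBX1, NR2F2, IRX5 and FGF3 fell too, but the call of GBX1 was lost with a pseudocount of 0.1 (-2.06, adjusted p = 0.0522 by limma). GBX2 fell as deposited (-1.08) but not after TMM scaling (-0.83) or at -0.89 without CT4.0RA replicate 1. IRX1, an Iroquois homeobox factor, rose and was at 107 and 98.7 TPM in CT4.0RA, against 10.6 and 10.0 TPM in CT2.0 (3.19 ± 0.35) and TSHZ1 at 48.4 and 48.6 TPM in CT4.0RA, against 3.76 and 4.33 TPM in CT2.0 (3.30 ± 0.24). The nuclear receptor gene NR2F1 was at 144 and 120.1 TPM in CT4.0RA, against 129 and 105 TPM in CT2.0, and did not pass. IRX3, at 60.4 and 70.1 TPM in CT4.0RA, against 60.0 and 55.5 TPM in CT2.0, did not pass either.

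Genes of axon guidance also fell more often than they rose. Of 34 tested, 11 fell (32.4%) and 4 rose (11.8%), where 4.16% and 2.38% of all genes tested did. Their median was -0.29, against -0.17 for all genes and -0.26 for protein-coding genes alone, so it lay near the latter. NTN1, the guidance cue netrin, was at 2.88 and 2.84 TPM in CT4.0RA libraries, against 38.5 and 41.6 TPM in CT2.0 libraries (-3.41 ± 0.28, adjusted p = 4.22e-09). EFNB2, a ligand of EPHA4, was at 9.05 and 8.41 TPM in CT4.0RA libraries, against 74.3 and 58.9 TPM in CT2.0 libraries (-2.79 ± 0.10, adjusted p = 4.17e-15), and EPHB1 at 3.72 and 5.44 TPM in CT4.0RA, against 37.0 and 40.4 TPM in CT2.0 (-2.85 ± 0.20). Those that rose were NRP1, SEMA3E, SEMA3C and PLXNA2, of which NRP1, a receptor of class 3 semaphorins, was at 7.71 and 8.11 TPM in CT4.0RA, against 1.40 and 1.21 TPM in CT2.0 (1.95 ± 0.35). The call of PLXNA2 (1.55) was lost at 1.37 without CT2.0 replicate 1 and 1.52 without CT4.0RA replicate 1. Cadherins and protocadherins, adhesion molecules that sort neural cells, fell in 6 of 22 and rose in none by limma (2 were higher at an unadjusted p under 0.05), with a median of -0.67. CDH11 was at 2.26 and 4.77 TPM in CT4.0RA libraries, against 60.2 and 61.6 TPM in CT2.0 libraries (-3.84 ± 0.29), and CDH7 at 0.541 and 0.540 TPM in CT4.0RA, against 13.2 and 15.9 TPM in CT2.0 (-3.33 ± 0.25). After TMM scaling 5 cadherins were lower and 1 was higher.

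Along the back to belly axis, ventral and intermediate genes were lower in CT4.0RA. Of 16 tested, 8 fell and none rose by limma (1 was higher at an unadjusted p under 0.05), with a median of -1.05 as deposited and -0.77 after TMM scaling. NKX6-1, a factor of ventral progenitors, was at 0 and 0.026 TPM in CT4.0RA libraries, against 3.55 and 14.7 TPM in CT2.0 libraries (-3.06 ± 0.40, adjusted p = 4.13e-06). SHH, the signal of the floor plate, was at 0 and 0.014 TPM in CT4.0RA libraries, against 1.47 and 4.34 TPM in CT2.0 libraries (-1.85 ± 0.39), and the second CT2.0 library was the higher for both. DBX1, of intermediate progenitors, was at 9.53 and 5.33 TPM in CT4.0RA, against 46.8 and 25.2 TPM in CT2.0 (-2.11 ± 0.38). Others that fell were NKX6-2, DBX2, NKX2-8 and PTCH1, a receptor and target of SHH, and the call of PTCH1 was lost after TMM scaling (-1.22 as deposited and -0.93 scaled). Leaving out 1 library ended the calls of NKX6-2 (-0.81 without CT2.0 replicate 2) and NKX2-8 (-0.61 without CT2.0 replicate 2). The count of the list that fell was 5 without CT2.0 replicate 2, and 0 when only the 4 libraries were fitted. OLIG2, NKX2-2 and FOXA2 were not tested, since they stayed under 1 TPM in all but at most 1 library of the series. In the dorsal list 2 of 20 were higher and 1 lower, and after TMM scaling 3 were higher and none lower. MSX1, a BMP target of the dorsal midline, was at 27.1 and 30.1 TPM in CT4.0RA libraries, against 1.67 and 0.267 TPM in CT2.0 libraries (4.01 ± 0.37, adjusted p = 3.09e-08). PAX3, a dorsal progenitor factor, was at 28.9 and 21.7 TPM in CT4.0RA, against 18.9 and 14.7 TPM in CT2.0, and did not pass (0.56 ± 0.33).

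Of 22 genes of neural progenitors in general, 9 fell (40.9%) and 1 rose (4.55%), where 4.16% and 2.38% of all genes tested did. Their median was -0.67, against -0.17 for all genes and -0.26 for protein-coding genes alone. After TMM scaling 5 were lower and 2 higher. SOX1, an early neural SOX factor, was at 3.68 and 2.86 TPM in CT4.0RA libraries, against 52.5 and 37.6 TPM in CT2.0 libraries (-3.42 ± 0.23, adjusted p = 2.54e-10). POU3F1 was at 0.178 and 0.474 TPM in CT4.0RA, against 17.0 and 13.6 TPM in CT2.0 (-3.62 ± 0.19), and SOX21 at 10.1 and 7.86 TPM in CT4.0RA, against 71.5 and 57.9 TPM in CT2.0 (-2.72 ± 0.26). PAX6 went against them, at 326 and 327 TPM in CT4.0RA libraries, against 178 and 169 TPM in CT2.0 libraries, which did not reach the threshold as deposited (0.91 ± 0.16) and did after TMM scaling (1.21). Among proneural factors and NOTCH effectors, 2 of 25 rose (8%) and 3 fell (12%), where 2.38% and 4.16% of all genes tested did. NEUROG2, which drives sensory and motor neurogenesis, was at 24.0 and 21.6 TPM in CT4.0RA libraries, against 0.977 and 1.78 TPM in CT2.0 libraries (3.34 ± 0.34, adjusted p = 9.68e-08), and NEUROG1 averaged 6.73 TPM in CT4.0RA against 2.27 TPM in CT2.0 (1.27 ± 0.16), with its call lost at 0.99 without CT2.0 replicate 1. NEUROG3 and LFNG fell, with LFNG, a glycosyltransferase that tunes NOTCH, at 41.8 and 43.1 TPM in CT4.0RA, against 156 and 150.2 TPM in CT2.0 (-1.83 ± 0.16).

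Neuronal genes changed in both directions, 5 of 29 higher (17.2%) and 4 lower (13.8%), where 2.38% and 4.16% of all genes tested were. Their median was -0.45, against -0.17 for all genes and -0.26 for protein-coding genes alone. The count that rose was 3 without either CT2.0 library or without CT4.0RA replicate 1, and the count that fell was 7 without CT2.0 replicate 2. ONECUT1, a factor of young motor and inter-neurons, was at 74.4 and 61.9 TPM in CT4.0RA libraries, against 2.82 and 6.01 TPM in CT2.0 libraries (3.73 ± 0.36, adjusted p = 4.83e-08). The others that rose were LHX1, CNTN2, SNAP25 and MNX1. The call of CNTN2 (1.33) was lost at 1.27 without CT4.0RA replicate 1, 0.71 without CT2.0 replicate 2 and 1.38 without CT4.0RA replicate 2, and that of SNAP25 (1.30) at 0.89 without CT2.0 replicate 1. MNX1, the motor neuron homeobox factor, was at 4.19 and 1.51 TPM in CT4.0RA, against 0.085 and 0 TPM in CT2.0 (1.79 ± 0.52), and its call was lost at 1.85 without CT2.0 replicate 1, 1.27 without CT4.0RA replicate 1 and 1.74 without CT2.0 replicate 2. ELAVL4, an RNA-binding protein of neurons, was at 2.00 and 2.23 TPM in CT4.0RA, against 12.5 and 21.7 TPM in CT2.0 (-2.49 ± 0.26), and EBF2, MAP2 and GAP43 fell too. TUBB3, the neuronal tubulin, was at 271 and 309 TPM in CT4.0RA, against 385 and 408 TPM in CT2.0, and did not pass (-0.45 ± 0.17, adjusted p = 0.0659). ISL1, ISL2 and LHX3, the other motor neuron factors of the list, were under the filter. The HOX cofactors, which bind DNA beside HOX proteins, divided, with 2 of 9 higher and 3 lower. PKNOX2 rose (1.41 ± 0.24). PBX3 fell, at 8.17 and 8.70 TPM in CT4.0RA, against 97.5 and 89.5 TPM in CT2.0 (-3.32 ± 0.34), and so did MEIS3 (-2.73 ± 0.13). MEIS1 fell as deposited (-1.06) and was not called after TMM scaling (-0.77) or without any 1 of the libraries (-1.08 without CT2.0 replicate 1, -1.05 without CT4.0RA replicate 1, -1.04 without CT2.0 replicate 2 and -1.07 without CT4.0RA replicate 2).

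Of the 12 largest increases among protein-coding genes whose libraries did not overlap, 7 were HOX genes or CDX1, and DHRS3 of the RA list was another. RELN, the extracellular matrix protein reelin, was at 142 and 125 TPM in CT4.0RA libraries, against 1.30 and 1.37 TPM in CT2.0 libraries (5.85 ± 0.25, adjusted p = 1.14e-13). IGF2, an imprinted growth factor, was at 247 and 228 TPM in CT4.0RA libraries, against 9.16 and 6.08 TPM in CT2.0 libraries (4.81 ± 0.29, adjusted p = 3.28e-11), and IGF2-AS, which overlaps it on the other strand, averaged 17.6 TPM in CT4.0RA against 0.147 TPM in CT2.0. GRIP2, a scaffold of glutamate receptors, was at 74.5 and 65.7 TPM in CT4.0RA, against 0.964 and 1.12 TPM in CT2.0 (5.12 ± 0.19), and GFRA1, a coreceptor of GDNF, at 75.2 and 61.7 TPM in CT4.0RA, against 2.62 and 0.671 TPM in CT2.0 (4.81 ± 0.48). The largest decrease was that of PAPLN, which encodes the matrix protein papilin, at 0.611 and 1.000 TPM in CT4.0RA libraries, against 183 and 126 TPM in CT2.0 libraries (-6.41 ± 0.31, adjusted p = 6.08e-13). GRIK3, a kainate receptor subunit, was at 0.833 and 0.760 TPM in CT4.0RA libraries, against 64.3 and 73.2 TPM in CT2.0 libraries (-5.28 ± 0.25, adjusted p = 6.74e-13). FXYD7 and FXYD1 are small regulators of the sodium pump, and FXYD7 averaged 0.345 TPM in CT4.0RA against 28.7 TPM in CT2.0 (-4.46 ± 0.29). FXYD1 averaged 0.398 TPM in CT4.0RA against 19.0 TPM in CT2.0 (-3.89 ± 0.50). NCAN, the proteoglycan neurocan, was at 1.93 and 1.72 TPM in CT4.0RA, against 37.8 and 44.5 TPM in CT2.0 (-3.90 ± 0.16). ADCY2, ANKRD1, CRYBB1, EFCC1 and NPPB completed the decreases, with log2 fold changes between -4.79 and -3.92.

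Peptide hormone genes, the list that holds POMC, had 5 of 21 higher (23.8%) and 4 lower (19.0%), where 2.38% and 4.16% of all genes tested were. NPPC, a natriuretic peptide, was at 359 and 403 TPM in CT4.0RA libraries, against 52.1 and 44.6 TPM in CT2.0 libraries (2.95 ± 0.29, adjusted p = 7.19e-08), whereas its relative NPPB was at 0.437 and 0.438 TPM in CT4.0RA libraries, against 21.6 and 20.02 TPM in CT2.0 libraries (-3.92 ± 0.21). SST, the peptide somatostatin, was at 0.691 and 0 TPM in CT4.0RA, against 20.1 and 6.91 TPM in CT2.0 (-3.31 ± 0.32). CCK, ADM and NPPA also rose, and TAC3 and ADCYAP1 also fell, although the call of ADCYAP1 (-1.23) was lost at -0.82 without CT2.0 replicate 1. ADM was at 6.49 and 10.5 TPM in CT4.0RA, against 3.30 and 1.67 TPM in CT2.0 (1.46 ± 0.35), and its call was lost at 1.11 without CT2.0 replicate 2 and 1.14 without CT4.0RA replicate 2.

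Genes of hypoxia and glycolysis were higher, 7 of 19 with none lower by limma (2 were lower at an unadjusted p under 0.05) and a median of 0.70. LDHA, lactate dehydrogenase, was at 245 and 331 TPM in CT4.0RA libraries, against 72.3 and 84.6 TPM in CT2.0 libraries (1.85 ± 0.21, adjusted p = 6.47e-07), and VEGFA at 157 and 155 TPM in CT4.0RA libraries, against 61.5 and 54.1 TPM in CT2.0 libraries (1.42 ± 0.18). ENO1, a glycolytic enzyme, was at 1565 and 1561 TPM in CT4.0RA, against 973 and 1025 TPM in CT2.0, below the threshold (0.65 ± 0.07). Of 21 p53 and stress genes, 5 were higher and none lower by limma (3 were lower at an unadjusted p under 0.05), with DDIT4 at 308 and 373 TPM in CT4.0RA, against 91.7 and 114 TPM in CT2.0 (1.72 ± 0.24) and CDKN1A at 17.7 and 21.6 TPM in CT4.0RA, against 8.07 and 8.61 TPM in CT2.0 (1.14 ± 0.23). Of 20 genes of cholesterol synthesis and uptake, 3 rose, INSIG1 and MSMO1 among them, and none fell by limma (1 was lower at an unadjusted p under 0.05). The call of INSIG1 (1.08) was lost at 0.98 without CT2.0 replicate 1 and 0.97 without CT4.0RA replicate 2, and that of MSMO1 (1.07) at 0.97 without CT2.0 replicate 1. None of 77 ribosomal protein genes was called by limma, where 73 lay higher and 1 lay lower with an unadjusted p under 0.05, and their median was 0.37 as deposited and 0.67 after TMM scaling. Their larger share of TPM moved with all of these differences, and its part in them was not tested beyond the scalings. Of 26 cell cycle genes, CDKN1A rose and CCND3 fell, 3.85% each way, where 2.38% of all genes tested rose and 4.16% fell. Their median was -0.40 as deposited and -0.11 after TMM scaling, against -0.17 and 0.00 for all genes. As deposited, protein-coding genes alone had a median of -0.26. At an unadjusted p under 0.05 alone, 2 were higher and 23 lower, and the share of all genes at that threshold is not given here.

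Markers of other cell types that such cultures could hold were low in both groups, with exceptions. Of 17 paraxial mesoderm genes, 8 were tested, MEOX1 rose and TCF15 fell (TCF15 -1.10, and not called after TMM scaling at -0.90), and the summed level was 20.2 and 14.3 TPM in CT4.0RA libraries, against 8.02 and 8.25 TPM in CT2.0 libraries. MEOX1, a somite factor, made up most of it in CT4.0RA, at 15.0 and 8.51 TPM in CT4.0RA, against 0.228 and 0.399 TPM in CT2.0 (3.23 ± 0.21), while MSGN1 and RIPPLY1 were at 0 in all 4 libraries. Of 12 endoderm genes, 6 were tested and EPCAM, which epithelial cells in general carry, rose (14.01 and 11.2 TPM in CT4.0RA, against 1.83 and 2.61 TPM in CT2.0). The endoderm sum was 32.7 and 27.7 TPM in CT4.0RA libraries, against 25.8 and 30.4 TPM in CT2.0 libraries, with SOX17 and GATA4 at 0 in all 4. Of 15 neural crest genes, TWIST1 rose and 4 fell, among them CRABP1, ETS1 and SNAI2, of which CRABP1 is also expressed by neural tube cells. The crest sum, mostly CRABP1, was 248 and 262 TPM in CT4.0RA libraries, against 4762 and 4401 TPM in CT2.0 libraries. The defining crest factors SOX10 and FOXD3 were listed at 0 in both CT4.0RA libraries and averaged 0.062 and 0.016 TPM in CT2.0. In the mesenchyme list 4 of 12 fell and none rose by limma or at an unadjusted p under 0.05, with TAGLN at 50.3 and 43.0 TPM in CT4.0RA, against 196 and 152 TPM in CT2.0 (-1.87 ± 0.22), and the sum was 124 and 120 TPM in CT4.0RA libraries, against 289 and 242 TPM in CT2.0 libraries. Of 16 pluripotency genes L1TD1 rose and none fell by limma (2 were lower at an unadjusted p under 0.05), with POU5F1 averaging 0.751 TPM in CT4.0RA against 1.67 TPM in CT2.0. The sum of the pluripotency list was not low, at 401 and 386 TPM in CT4.0RA libraries, against 540 and 555 TPM in CT2.0 libraries. LIN28A, also in the list of neural progenitors, was its most abundant uncalled member. In the endothelial and blood list 1 of 5 tested, TEK, fell, and in the surface ectoderm list EYA1 fell and none of 16 rose by limma (3 were higher at an unadjusted p under 0.05). After TMM scaling 2 of the surface ectoderm list, 2 of the forebrain list and 2 of the midbrain and isthmus list were higher. In the forebrain list of 16, FEZF2 rose, averaging 4.38 TPM in CT4.0RA against 0.601 TPM in CT2.0, and 1 gene fell. In the midbrain and isthmus list of 16, PAX2 rose (1.12) and LMX1B fell (-1.27), and the calls were lost at 1.05 without CT2.0 replicate 1 and 1.03 without CT4.0RA replicate 1 for PAX2 and at -0.73 without CT2.0 replicate 1 for LMX1B. Whether shifts in these cells contribute to the other differences was not tested.

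Cultures with CT at 4.0 µM and no RA can be set between the pair. They give a step of RA (CT4.0RA minus CT4.0) and a step of CT dose (CT4.0 minus CT2.0). The series has no CT2.0 cultures with RA. The RA step is thus known only at CT 4.0 µM, and the dose step only without RA. Whether either agent changes the effect of the other was not tested. The steps share libraries with each other and with the comparison above, so their values are only set side by side. In the RA step 1281 genes (4.54%) were higher and 1223 (4.33%) lower, and with ribosomal protein and mitochondrial genes left out of the total 1984 were higher and 1075 lower. In the dose step 1176 (4.17%) were higher and 2530 (8.96%) lower, and after TMM scaling 1753 (6.21%) were higher and 1919 (6.8%) lower. The HOX genes were split by these steps. In the dose step 22 of the 28 rose and 3 fell, and in the RA step 4 rose and 13 fell. HOXA9 was at 0 and 0.036 TPM in CT4.0RA libraries, against 99.9 and 119 TPM in CT4.0 libraries (-6.76 ± 0.43, adjusted p = 5.01e-11). HOXC8 was listed at 0 in CT4.0RA libraries and was at 66.3 and 78.6 TPM in CT4.0 libraries, and HOXB7 was at 4.51 and 4.31 TPM in CT4.0RA, against 244 and 272 TPM in CT4.0 (-5.58 ± 0.25). HOXD4 went the other way, at 226 and 211 TPM in CT4.0RA, against 48.8 and 58.3 TPM in CT4.0 (2.01 ± 0.23). So did HOXB1, at 205 and 182 TPM in CT4.0RA, against 31.2 and 31.2 TPM in CT4.0 (2.60 ± 0.16).

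Genes of the RA list rose in the RA step in 10 of 25 and fell in 2, and in the dose step 5 rose and 10 fell. CYP26A1 was at 217 and 260.0 TPM in CT4.0RA, against 0.236 and 0.411 TPM in CT4.0 (7.50 ± 0.33, adjusted p = 1.6e-13). RARB was at 30.2 and 32.0 TPM in CT4.0RA, against 0.444 and 0.502 TPM in CT4.0 (4.45 ± 0.21, adjusted p = 3.29e-13). DHRS3, the retinaldehyde reductase, was at 36.9 and 45.5 TPM in CT4.0RA, against 2.22 and 2.46 TPM in CT4.0 (3.65 ± 0.26).

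The CDX genes also divided. CDX1 was at 70.2 and 84.9 TPM in CT4.0RA, against 0.352 and 1.29 TPM in CT4.0 (5.47 ± 0.28, adjusted p = 1.27e-12). CDX2 was at 0.502 and 0.952 TPM in CT4.0RA, against 122 and 139.5 TPM in CT4.0 (-6.26 ± 0.20, adjusted p = 1.06e-15). FGF8 was at 0.750 and 0.993 TPM in CT4.0RA, against 382 and 408 TPM in CT4.0 (-7.73 ± 0.27). TBXT was listed at 0 in CT4.0RA and averaged 22.2 TPM in CT4.0. Axial progenitor factors fell in 8 of 15 and rose in 2 in the RA step, and FGF ligands and ERK feedback genes fell in 12 of 26 and rose in 3.

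Several neural genes that CT4.0RA and CT2.0 libraries both held were near 0 in CT4.0. PAX6 was at 326 and 327 TPM in CT4.0RA, against 1.29 and 1.78 TPM in CT4.0 (7.02 ± 0.16, adjusted p = 2.94e-18), and at 178 and 169 TPM in CT2.0. DCX was at 23.2 and 21.7 TPM in CT4.0RA, against 0.122 and 0.297 TPM in CT4.0 (4.28 ± 0.18, adjusted p = 1.05e-13). NR2F1 averaged 132 TPM in CT4.0RA, against 0.392 TPM in CT4.0, and HES5, the NOTCH effector of neural progenitors, 131 TPM in CT4.0RA, against 0.340 TPM in CT4.0. In the RA step pan-neural genes rose in 9 of 22, neuronal genes rose in 13 of 29 and fell in 2, and proneural and NOTCH genes rose in 11 of 25 and fell in 2. SOX1 stayed low, at 3.68 and 2.86 TPM in CT4.0RA, against 0.076 and 0.149 TPM in CT4.0 (1.94 ± 0.23). FNDC5 and SNCG, chosen after their values were seen, stood highest in CT4.0RA. FNDC5 averaged 508 TPM in CT4.0RA, 1.66 TPM in CT4.0 and 46.2 TPM in CT2.0, and SNCG averaged 157, 0.154 and 12.3 TPM in the same order.

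PAPLN, SFRP1, NCAN and EGR2, which were lower in CT4.0RA than in CT2.0, were low in CT4.0 too. PAPLN was at 0.611 and 1.000 TPM in CT4.0RA, against 0.332 and 0.429 TPM in CT4.0, with an RA step of 0.38 ± 0.31 that did not pass. SFRP1 averaged 30.8 TPM in CT4.0RA, against 35.2 TPM in CT4.0 (-0.19 ± 0.10), and NCAN 1.82 TPM in CT4.0RA, against 2.08 TPM in CT4.0 (-0.12 ± 0.16). Neither passed. EGR2, listed at 0 in CT4.0RA, averaged 0.116 TPM in CT4.0. CRABP1, also lower in CT4.0RA than in CT2.0, was higher in CT4.0RA than in CT4.0, at 183 and 196 TPM in CT4.0RA, against 28.8 and 31.7 TPM in CT4.0 (2.61 ± 0.45, adjusted p = 8.87e-05). The hypoxia list was higher in the dose step (12 of 19 higher, 1 lower) and not in the RA step (1 higher, 4 lower), and the cholesterol list likewise (14 of 20 higher in the dose step, 1 higher and 8 lower in the RA step).

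**Figure D4:**
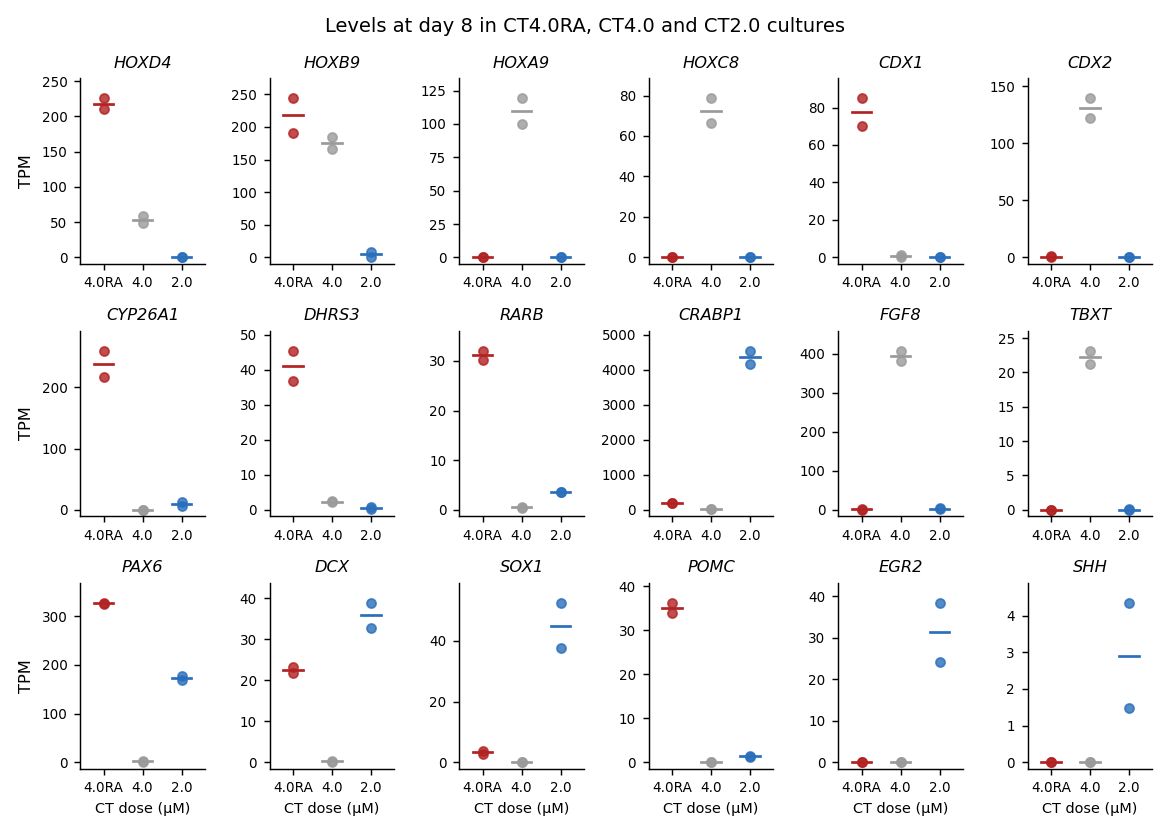
TPM (y axes, each gene on its own scale from 0) in each library of CT4.0RA (left), CT4.0 (middle) and CT2.0 (right) at day 8, with a line at each group's mean. CDX1 is high in CT4.0RA alone, CDX2, HOXA9, HOXC8, FGF8 and TBXT in CT4.0 alone, EGR2 is high in CT2.0 alone, CRABP1 is highest in CT2.0, and PAX6 and DCX are near 0 in CT4.0.

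The same pair of conditions was also sampled at day 4. The difference of the 2 days, day 8 less day 4 of CT4.0RA minus CT2.0, was called for 527 genes (1.87%) in the higher and 530 (1.88%) in the lower direction. CRABP1 had the largest positive value (6.31 ± 0.63, adjusted p = 6.45e-07), with 3.59 and 4.08 TPM in CT4.0RA, against 7391 and 10434 TPM in CT2.0, at day 4, a wider gap than at day 8. CYP26A1 did not separate the groups at day 4, at 93.8 and 225 TPM in CT4.0RA, against 143 and 117 TPM in CT2.0, and at day 8 the CT2.0 libraries held 12.7 and 6.08 TPM (4.43 ± 0.47, adjusted p = 1.46e-06). GALP, CALB2 and ASGR1 were high in CT2.0 at day 4 alone, with CALB2 at 0.045 and 0.133 TPM in CT4.0RA, against 54.2 and 50.4 TPM in CT2.0. FABP1, a fatty acid carrier known from liver and gut, was at 133 and 136 TPM in CT4.0RA and listed at 0 in CT2.0 at day 4, and at 4.39 and 2.25 TPM in CT4.0RA at day 8 (adjusted p of the difference of days = 2.09e-11). ADCY2, NPPB and ANKRD1 were low in both groups at day 4, where they averaged 0.860, 0.298 and 0.073 TPM in CT4.0RA, against 0.752, 0 and 0.042 TPM in CT2.0. At day 8 ANKRD1 was at 0.037 and 0.180 TPM in CT4.0RA, against 17.6 and 15.7 TPM in CT2.0. LGR5 was higher in CT4.0RA at day 4, at 13.0 and 12.4 TPM, against 0.640 and 0.872 TPM in CT2.0. At day 8 it was lower in CT4.0RA as deposited, a call that was lost after TMM scaling (-0.75).

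The markers differed in when they separated. HOXB9 was at 79.8 and 161 TPM in CT4.0RA, against 0.444 and 5.67 TPM in CT2.0, at day 4, and its difference of days was not called (0.46 ± 0.72, adjusted p = 0.835). CDX1 was at 249 and 257 TPM in CT4.0RA, against 0.064 and 0.382 TPM in CT2.0, at day 4, higher in CT4.0RA than at day 8. POMC was at 0.121 and 0.166 TPM in CT4.0RA, against 0.341 and 0.073 TPM in CT2.0, at day 4, so that it separated only later (4.02 ± 0.23, adjusted p = 1.52e-10). RELN averaged 7.23 TPM in CT4.0RA, against 0.360 TPM in CT2.0, at day 4, and 134 TPM in CT4.0RA at day 8 (3.27 ± 0.35, adjusted p = 1.68e-06).

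**Figure D5:**
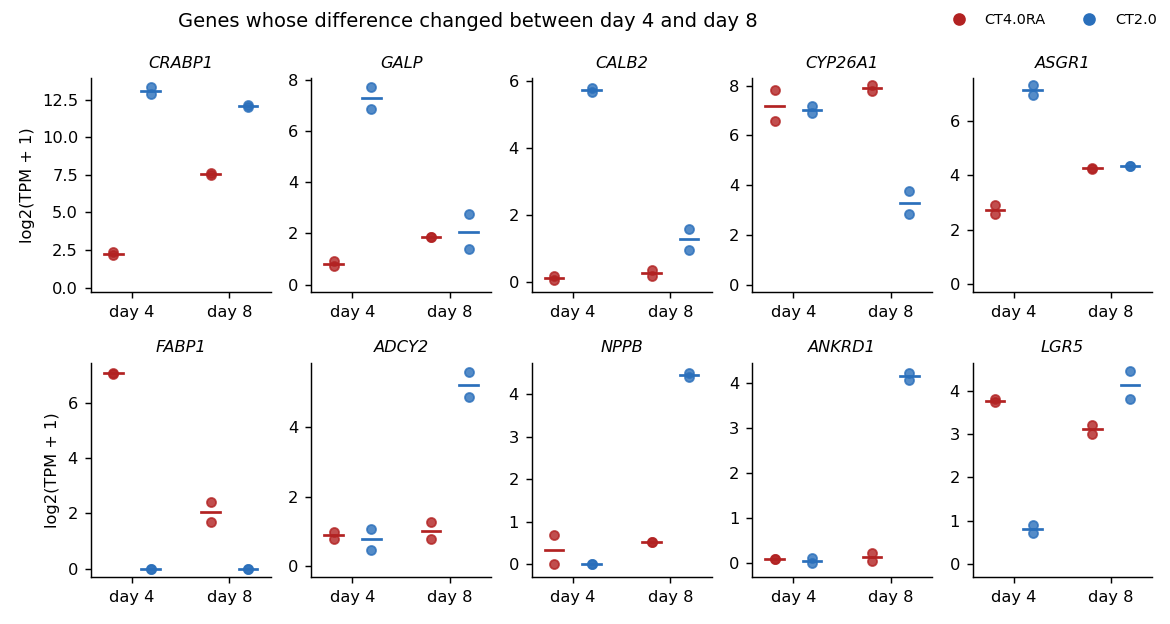
Level, log2(TPM + 1), of the 5 genes with the largest positive (top) and negative (bottom) difference of days, at day 4 and day 8 (x axes), in each library of CT4.0RA (left of each pair) and CT2.0 (right), with a line at each mean. CRABP1, GALP, CALB2 and ASGR1 are high in CT2.0 at day 4, and ADCY2, NPPB and ANKRD1 are high in CT2.0 at day 8 alone.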

How the data were processed

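Poly(A) RNA of H9-derived neural progenitors was sequenced, and the authors deposited 1 table of TPM per gene for 38 libraries in 19 groups. Per the submitters' processing notes, CASAVA 1.7 and Salmon 0.8.2 and the genome build hg38 were used, with the annotation release and strand setting not given in the sources used here. Read numbers are not given with TPM, so the precision that depth allows is unknown and no counting interval was computed. Paired-end reads came from 1 of 2 instruments per the labels' protocols, which do not tie libraries to instruments.

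From the deposited TPM, genes of at least 1 TPM in at least 2 libraries were kept (28221 of 58219) and log2(TPM + 1) was fitted with limma 3.58.1 (R 4.3.3), with 1 mean per group and an empirical Bayes trend. Calls needed a Benjamini-Hochberg adjusted p under 0.05 and a log2 fold change of at least 1 in size. The fit was tested on simulated data. Replicate numbers were not used as a block, since deviations of same-numbered libraries of CT4.0RA and CT2.0 at day 8 did not correlate (r = -0.0057). Other groups were not checked in this way. Gene coordinates are those of GENCODE release 29 for IDs that match it, and promoters are from RefSeq.

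The groups, the gene lists and the markers were chosen with earlier results of these data known. Genes were named by rule: the 5 markers, all HOX genes, the 12 largest called changes in each direction among protein-coding genes without overlap between the groups and averaging at least 5 TPM in the higher group, the 4 largest called changes and 2 most abundant uncalled genes of each of the 29 lists, and the 5 largest differences of days in each direction. Other list members were named where a count was small, and further genes are marked in the text as chosen after their values were seen. Some genes that the rule selects are not reported here.

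Alternatives were a pseudocount of 0.1, no filter, protein-coding genes alone, TMM and median-of-ratios scaling, leaving ribosomal protein and mitochondrial genes out of the total, the replicate block, a fit of only the groups compared, and leaving out each library.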

Additional observations from a re-analysis of the deposited data

Results flagged for a closer look

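The contrast of CT4.0RA minus CT2.0 differed between day 8 and day 4 for 527 genes in the higher and 530 in the lower direction, by limma's test of the difference itself. By the naming rule, the genes with the largest positive differences of days on the log2 scale were CRABP1 (6.31), GALP (6.26), CALB2 (4.61), CYP26A1 (4.43) and ASGR1 (4.34). GALP, a galanin-like peptide, was at 0.882 and 0.640 TPM in CT4.0RA, against 115 and 207 TPM in CT2.0, at day 4, and ASGR1, a receptor known from liver, at 6.44 and 5.01 TPM in CT4.0RA, against 125 and 160.1 TPM in CT2.0. The most negative were FABP1 (-5.02), ADCY2 (-4.30), NPPB (-4.26), ANKRD1 (-4.04) and LGR5 (-3.99). With a pseudocount of 0.1 these were -5.37 for FABP1, -5.33 for ADCY2, -6.68 for NPPB, -6.77 for ANKRD1 and -5.02 for LGR5, and of the positive ones GALP was 7.29 and CALB2 5.86. Groups hold 2 libraries each, too few for a check for outlying samples.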

How the results depend on the processing

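With only the groups compared in the fit, fewer residual degrees of freedom remain, and limma called 381 genes higher and 590 lower in CT4.0RA than in CT2.0, 721 higher and 699 lower in the RA step, 1622 lower in the dose step, and 303 higher and 322 lower for the difference of days. Over all genes, 872 of the 1846 calls of CT4.0RA minus CT2.0 were shared with that fit. Of 150 genes whose CT4.0RA minus CT2.0 value or call is given, 45 lost their call in it. The 150 include genes that were not called at the outset and so had no call to lose. TMM scaling left 686 and median-of-ratios scaling 677 genes lower in CT4.0RA than in CT2.0, and each scaling ended 7 of the 150 results and added 2. Leaving out ribosomal protein and mitochondrial genes gave 1984 genes higher in the RA step, and testing protein-coding genes alone gave 711 higher in the dose step, out of fewer genes tested. A pseudocount of 0.1 gave 795 higher and 1682 lower in CT4.0RA than in CT2.0. Without 1 library, 557 to 707 genes were higher and 1006 to 1362 lower in CT4.0RA than in CT2.0, and 6 to 13 of the 150 results were lost. HOX genes higher numbered between 14 and 20 over all these alternatives, and HOXA2 was the 1 lower in each. The difference of days of HOXB9, which was not called, lay between -0.64 and 1.56 when 1 library was left out. The RA step of NCAN, not called either, was 0.0023 without ribosomal protein and mitochondrial genes. The cause of these shifts was not tested. Library titles carry CTRL1 or CTRL2 in every group, and the titles do not say whether equal numbers mark libraries made together. With the replicate block 667 genes were higher and 1169 lower, 1821 of the 1846 calls were shared, and none of the 150 results changed. Depth behind TPM is unknown, so low values near the filter have an error that cannot be stated.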

Other observations

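Among 26 FGF ligands and ERK feedback genes tested, FGF19 rose and FGF3, SPRED2 and FGFR3 fell in CT4.0RA relative to CT2.0. After TMM scaling 3 were higher and 2 lower, and 9 lay higher and 10 lay lower with an unadjusted p under 0.05. A pseudocount of 0.1 gave 3 higher and 8 lower, and without CT2.0 replicate 2 the count that fell was 6, without CT4.0RA replicate 1 it was 5. FGF19, a ligand of the endocrine FGF group, was at 5.47 and 5.38 TPM in CT4.0RA libraries, against 0.340 and 1.99 TPM in CT2.0 libraries (1.68 ± 0.30). FGFR3, a receptor, was at 86.5 and 81.0 TPM in CT4.0RA libraries, against 196 and 169.7 TPM in CT2.0 libraries, and its call (-1.12) was lost after TMM scaling (-0.82).

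Some genes outside every list, chosen after their values were seen, stood far apart between the groups. PRDM13, which sets the balance of inhibitory and excitatory neurons in the mouse dorsal neural tube, was at 14.8 and 14.7 TPM in CT4.0RA libraries, against 0 and 0.071 TPM in CT2.0 libraries (3.93 ± 0.13, adjusted p = 1.03e-15). CLDN1, a tight junction protein, was at 36.6 and 30.3 TPM in CT4.0RA libraries, against 1.14 and 1.12 TPM in CT2.0 libraries (4.01 ± 0.22). H19, the imprinted neighbour of IGF2, was at 1.90 and 1.09 TPM in CT4.0RA libraries, against 0.09 and 0.166 TPM in CT2.0 libraries (1.13 ± 0.28), and its call was lost at 0.89 without CT4.0RA replicate 1.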
